A study of Mus musculus with 4 samples.

Results

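Of 520554 mouse promoter and CpG island probes measured by MeDIP-chip, 22780 were bright in the methylated DNA channel on both decitabine arrays and on neither untreated array, which is 4.38% of the probes. These members were chosen by the scanner software's flag for a signal well above background in that channel, so their MeDIP brightness after decitabine is the way they were selected and not a finding. MeDIP-chip hybridizes DNA pulled down with an antibody to methylated cytosine (MeDIP) and the unselected starting DNA (input) to one array of oligonucleotides, each reporting on 1 short stretch of the genome. The 4 arrays held leukaemic mouse cells of 4 groups: WT cells with decitabine, KO cells with decitabine, untreated WT cells and untreated KO cells. The decitabine dose was 20 nM, repeated every 24 h over 3 days, with harvest of treated and untreated cells at 72 h. The source names call the lines Mll5 wild type and Mll5 KO, while the genotype field of the KO samples reads HOXA9 KO, so the labels do not agree on which gene the KO cells lack. Every group had 1 array, and no 2 groups shared a slide, which means that effects of slide and of group cannot be told apart. No test was made, since the rule itself set the decitabine arrays against the untreated ones.

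Cytosine methylation in mammals sits mainly on CpG dinucleotides, which are scarce in most of the genome and mostly methylated there, and which are dense and mostly unmethylated in the CpG islands found at many promoters. Decitabine is a deoxycytidine analogue that is built into DNA during replication and traps DNA methyltransferases, so dividing cells lose methylation. MLL5 is a SET-domain protein related to the histone H3K4 methyltransferases, with roles in blood cell development. The antibody enrichment used in MeDIP grows with the number of methylated CpG in the captured fragment, so the CpG content around a probe bears on the signal it can give.

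The probe sequences below show what the members looked like, with each CpG in capitals, and positions in mm9. The first set holds the 4 members with the highest lower value of their MeDIP signals on the decitabine arrays, in intergenic or intronic DNA at Vangl1, a planar cell polarity gene, Aurkb, a mitotic kinase, Gli1, a Hedgehog pathway transcription factor, and Dapk2, a death-associated kinase.
Vangl1 chr3:102011560-102011605 (plus): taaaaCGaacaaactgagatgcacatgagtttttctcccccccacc
Aurkb chr11:68853469-68853515 (plus): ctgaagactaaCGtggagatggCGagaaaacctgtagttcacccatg
Gli1 chr10:126778700-126778744 (plus): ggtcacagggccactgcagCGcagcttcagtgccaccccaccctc
Dapk2 chr9:66007368-66007419 (plus): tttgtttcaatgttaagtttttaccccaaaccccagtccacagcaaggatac
The second set holds the 4 members with the most CpG within those limits, at Fcho2, which acts in endocytosis, the kinase gene Rps6ka1, the adrenergic receptor gene Adrb1 and the transcript AW121567.
Fcho2 chr13:99584735-99584779 (plus): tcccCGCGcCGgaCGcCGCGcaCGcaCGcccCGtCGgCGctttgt
Rps6ka1 chr4:133443787-133443831 (plus): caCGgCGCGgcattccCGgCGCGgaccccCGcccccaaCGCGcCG
Adrb1 chr19:56798094-56798138 (plus): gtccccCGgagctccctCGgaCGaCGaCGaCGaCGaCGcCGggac
AW121567 chr8:9771609-9771653 (plus): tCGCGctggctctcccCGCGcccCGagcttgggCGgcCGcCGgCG
The last set holds 4 of the 5 probes of 1 of the 4 longest runs of neighbouring members, in an intron of Zbtb4, whose zinc finger product recognizes methylated CpG.
Zbtb4 chr11:69580472-69580523 (plus): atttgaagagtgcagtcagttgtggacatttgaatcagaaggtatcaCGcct
Zbtb4 chr11:69580628-69580675 (plus): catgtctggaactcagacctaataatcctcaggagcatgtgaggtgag
Zbtb4 chr11:69580742-69580788 (plus): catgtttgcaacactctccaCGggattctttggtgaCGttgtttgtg
Zbtb4 chr11:69580899-69580944 (plus): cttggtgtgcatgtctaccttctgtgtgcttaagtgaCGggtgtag
The strands of the array were uneven, since 518916 probes matched the plus strand and 605 the minus strand. These sets span much of the range of the members: 1 of the 4 brightest shown held no CpG, while the 4 CpG-richest shown held 9 to 11 in 45 bases.

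At Vangl1 the background-subtracted MeDIP signal was 829 scanner units on the WT decitabine array and 845 on the KO decitabine array, against 86.3 on the WT untreated and 190 on the KO untreated array. Since the untreated signals were not well above background, only a lower bound can be given for the difference. The bound divides the MeDIP over input ratio after decitabine by that of untreated cells with the untreated MeDIP signal raised to the dimmest bright probe of its array, each array centred on its median log2 ratio. It was at least 7.09-fold higher in WT and at least 11.1-fold higher in KO cells at Vangl1. With the arrays centred instead on the probes bright on all 4 arrays, these bounds were 5.20-fold in WT and 6.62-fold in KO cells. Aurkb had 672 and 730 units on the WT and KO decitabine arrays, against -2.52 and 189 on the WT and KO untreated arrays. On the KO untreated array both genes' probes lay just under its limit, and on the WT untreated array Aurkb was far below the limit.

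A probe counted as bright when its background-subtracted MeDIP signal was more than 5 SDs of the negative control spots of the same array, a relation that held for 100% of the spots. The limit therefore differed between arrays. It was 115 units on the WT decitabine, 96.3 on the KO decitabine, 108 on the WT untreated and 195 on the KO untreated array. The median signal of the members was 171 units on the WT decitabine and 156 on the KO decitabine array, against 47.7 on the WT untreated and 113 on the KO untreated array. On the KO untreated array 11065 members (48.6%) had a signal at or above the limit of the WT decitabine array, and 14531 (63.8%) were at or above that of the KO decitabine array. On the WT untreated array those counts were 32 and 1456. With the limit of the KO untreated array applied to all 4 arrays, the pattern held for 5050 probes, of which 4242 were members. In KO cells 3279 members had a signal after decitabine at or below their untreated signal, while over all probes the share with such signals was 43.3%. In WT cells the limits of the rule leave almost no room for this.

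**Figure D1:**
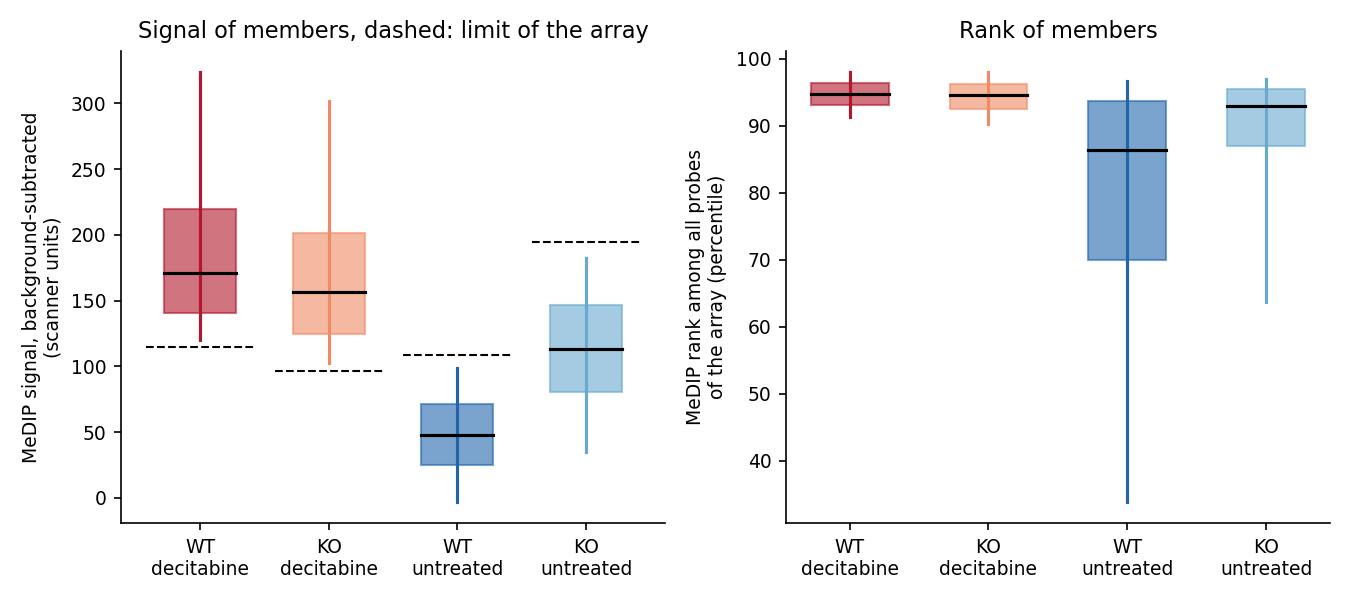
MeDIP signal of the 22780 members on each array, in background-subtracted scanner units (left) and as a percentile among all probes of the same array (right). Boxes span the 25th to 75th percentile of the members, lines the 5th to 95th, black bars mark the median and dashed lines the array's limit; the KO untreated array has the highest limit, 195 units.

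The lower of their decitabine signals, divided by the limit of its array, had a median of 1.36, and 3216 members (14.1%) reached 2 times the limit or more. The higher of the untreated signals had a median of 0.655 of its limit, and 6149 members (27.0%) reached at least 0.8 of it. Both untreated signals were under 0.5 of their limits for 5947 members (26.1%). The lower decitabine signal was at least 2 times the higher untreated signal for 4150 members (18.2%). On the scanner's mean signal minus local background, before detrending, that held for 2 members.

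The sequences of the 4 members just inside the brightness limit and the 4 probes just outside it are printed because signals there were nearly equal. Just inside were probes at Leprotl1, Rin2, Timp1 and Rgs17.
Leprotl1 chr8:35212288-35212339 (plus): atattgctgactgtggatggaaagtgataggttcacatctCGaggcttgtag
Rin2 chr2:145612329-145612373 (plus): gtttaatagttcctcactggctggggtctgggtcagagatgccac
Timp1 chrX:20443544-20443603 (plus): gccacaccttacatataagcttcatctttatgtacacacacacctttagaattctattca
Rgs17 chr10:4424482-4424526 (plus): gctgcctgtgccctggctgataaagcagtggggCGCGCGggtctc
Just outside were probes at Cchcr1, Cd109, 3110056O03Rik and Insl5.
Cchcr1 chr17:35657119-35657169 (plus): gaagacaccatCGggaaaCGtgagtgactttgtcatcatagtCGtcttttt
Cd109 chr9:78462284-78462334 (plus): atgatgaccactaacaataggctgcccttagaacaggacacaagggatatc
3110056O03Rik chr10:80320822-80320866 (plus): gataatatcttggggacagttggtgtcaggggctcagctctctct
Insl5 chr4:102699075-102699134 (plus): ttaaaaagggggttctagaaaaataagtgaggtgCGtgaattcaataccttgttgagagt
The Leprotl1 member had 115.05 units on the WT decitabine array, at a limit of 115.05 to 2 decimals, and 102 on the KO decitabine array, against 29.2 on the WT untreated and 85.7 on the KO untreated array. The Insl5 probe, which is no member, had 115.04 and 103 units on the WT and KO decitabine arrays, against 73.3 and 40.5 on the WT and KO untreated arrays.

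The untreated arrays had few bright probes of any kind. There were 47456 bright probes on the WT decitabine and 54658 on the KO decitabine array, against 14104 on the WT untreated and 13715 on the KO untreated array. The members made up 58.1% of the 39222 probes bright on both decitabine arrays. The opposite pattern, bright on both untreated arrays and on neither decitabine array, held for 8 probes, and 8778 probes were bright on all 4 arrays. A count of bright probes by rank gives each array the same number. With the brightest 5% of each array taken as bright, 2577 probes were bright on the decitabine arrays alone and 1868 on the untreated arrays alone, with 12212 bright on all 4. With the brightest 10% the counts were 6356 for decitabine alone and 4119 for untreated alone. Of the 6356 probes of the 10% rule 5376 were members.

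The members ranked high on every array. Their median MeDIP rank among all probes was the 94.8th percentile on the WT decitabine and the 94.5th on the KO decitabine array, against the 86.4th on the WT untreated and the 92.9th on the KO untreated array. Of the members, 12487 (54.8%) ranked higher on both decitabine arrays than on both untreated arrays. The rank on the untreated array was above that on the decitabine array for 27.7% of the members in KO cells and for 16.5% in WT cells. The rule chose the members on these same MeDIP signals, so the rank counts are descriptions. They are given without the matching shares over all probes. Feature Extraction had replaced the MeDIP value by a surrogate for 22.9% of the members on the WT untreated and 6.48% on the KO untreated array, and for 0 members on the decitabine arrays.

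On the log2 ratio of MeDIP over input, centred on each array's median over probes with bright input, the members' median was 0.18 on the WT decitabine and 0.63 on the KO decitabine array, against -1.19 on the WT untreated and -0.67 on the KO untreated array. The lower bound on the change with decitabine exceeded 1-fold in both genotypes for 15057 members (66.1%) and reached 2-fold in both for 1890 (8.30%). These bounds rest on the centring. Probes bright on all 4 arrays were themselves higher after decitabine, by a median of 0.61 in WT and 0.80 in KO cells on the log2 scale, over 8687 probes. With each array centred on those probes instead, a choice made after seeing the data, 5465 members (24.0%) exceeded 1-fold in both genotypes and 266 (1.17%) reached 2-fold. The counts under either centring are descriptions, since the rule used the MeDIP channel. They are given without the matching shares over other probes.

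The input signal, which the rule did not use, was the measure in which members differed most plainly from the other probes. Their median rank by input signal, averaged over the 4 arrays on the log2 scale, was the 94.5th percentile, and 15523 members (68.1%) fell in the top 10% of input, against 7.34% of the other probes. With the probes divided into 10 equal bins by input, from dimmest to brightest, the share that were members was higher in each bin than in the one before, at 0.0269% in bin 1, 1.12% in bin 6, 6.74% in bin 9 and 29.8% in bin 10. With 50 equal bins the share was highest in bin 49, where 56.6% of probes were members, and was 27.1% in bin 50. Of the probes bright on all 4 arrays 85.9% lay in the top 10% of input, and of those bright on no array 3.47% did. Only 553 members (2.43%) lay in the dimmer 50% of the input signal. The members' input was well above background on all 4 arrays for 22570 of them.

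**Figure D2:**
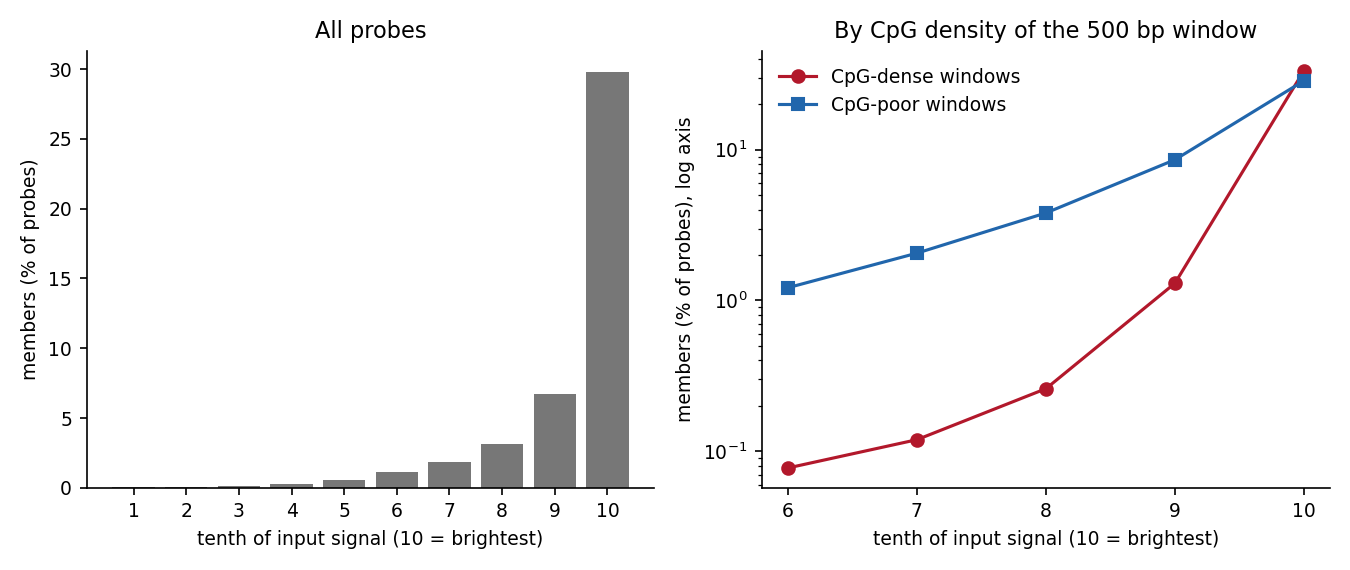
Share of probes that are members in each of 10 equal bins of input signal for all probes (left, bars) and for probes in CpG-dense and CpG-poor 500 bp windows (right, bins 6 to 10, log axis). The share is 29.8% in bin 10 over all probes. In bin 9 it is 1.30% in CpG-dense and 8.58% in CpG-poor windows, and in bin 10 it is 33.5% and 28.7%.

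Across all members the probes held somewhat more CpG than the rest of the array. A member had a mean of 1.13 CpG against 0.873 over all probes, 43.6% of members held no CpG against 53.1%, and 15.1% held 3 or more against 10.1%. The GC content of members had a median of 46.9% against 41.1%, and members were shorter, with 44.2% at the minimum length of 45 bases against 22.2% of all probes. Probes bright on all 4 arrays came close, with a median GC of 46.8% and 42.3% at 45 bases. The values were 46% and 35.6% for probes bright only on the WT decitabine array, and 42% and 23.9% for those bright only on the KO decitabine array. Higher GC and short length were thus not particular to the members. In CpG, the probes bright on all 4 arrays had a mean of 0.92, nearer that of all probes. The mean was 1.03 for probes bright only on the KO decitabine array, of which 46.8% held no CpG and 12.3% held 3 or more. For probes bright only on the WT decitabine array it was 0.82, with 51.2% holding no CpG and 8.49% holding 3 or more. Counted over the 500 bp around each probe, 14.7% of members lay in CpG-dense windows (observed over expected CpG of at least 0.75 and GC of at least 55%), against 9.14% of all probes, and 65.0% lay in CpG-poor windows (observed over expected under 0.48), against 75.2%. Of the probes bright on all 4 arrays, 69.1% lay in CpG-poor windows, between these shares. By number of CpG in the probe the share of members was 3.60% at 0 CpG, 7.03% at 3 and 4.79% at 6 or more, against 4.38% over all probes.

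At a given GC content above 45% the order by CpG turned round. Among probes over 60% GC, 19.0% of those with 0 CpG were members, 18.9% with 1, 15.3% with 2, 13.2% with 3 and 7.62% with 4 or more. Among probes of 50 to 55% GC the shares were 9.45% with 0 CpG and 1.81% with 4 or more. Under 40% GC the shares lay close together, from 1.86% with 0 CpG to 2.83% with 3.

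**Figure D3:**
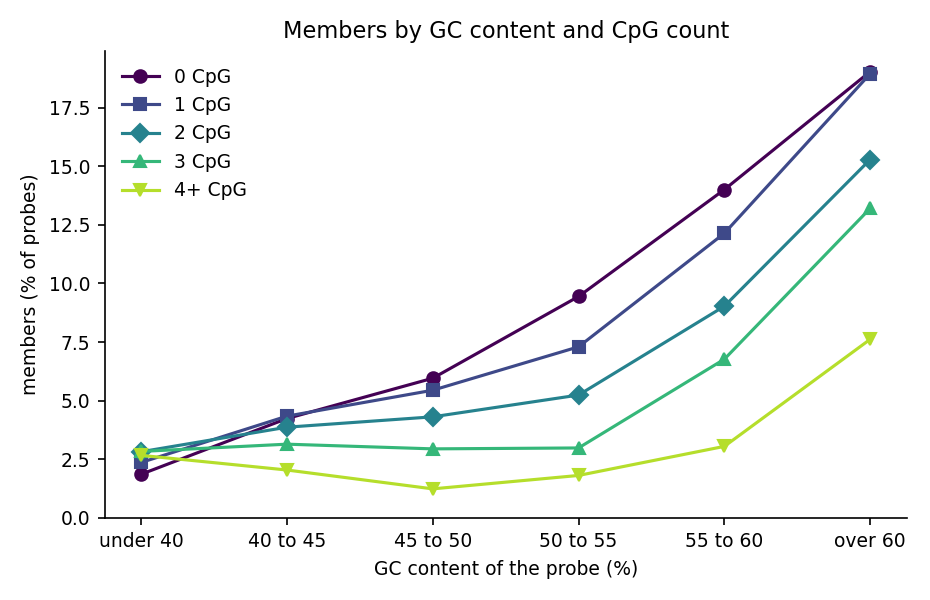
Share of probes that are members (y axis, %) by GC content of the probe (x axis) for probes with 0, 1, 2, 3 and 4 or more CpG (lines). Over 60% GC the share is 19.0% with 0 CpG and 7.62% with 4 or more; under 40% GC all lines lie between 1.86% and 2.83%.

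The members also held more C than G on the printed strand. Members averaged 27.3% C and 22.1% G, while all probes averaged 21.8% C and 21.6% G. The excess of C over G was 5.24 percentage points in members, 10.2 in probes bright on all 4 arrays and -0.47 in probes bright on no array. It was 5.26 in probes bright only on the WT decitabine array, close to that of the members. Within the top 10% of input it was 6.84 points in members, 5.64 in the other probes and 2.06 in probes bright on no array.

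The input signal split the members into kinds of unlike sequence, and it split the other probes in the same direction in length and GC. The 15523 members in the top 10% of input were 45 bases long in 61.7% of cases, against 57.0% of the other probes there. Their median GC was 53.3%, against 51.1%, and 20.8% lay in CpG-dense windows, against 17.6%. The 7257 members outside that top 10% had a median GC of 40.7%, against 40.4% for the other probes outside the top 10%. Of these members 6.71% were 45 bases long, against 18.4% of those other probes. In CpG-dense windows lay 1.46% of these members, against 8.20% of those other probes. Of those 7257 members 86.2% lay in CpG-poor windows, against 77.0% of the other probes, 34.7% held exactly 1 CpG, against 26.6%, and 3.61% held 3 or more, against 9.33%. Near transcription starts, from 1000 bp before to 500 bp after, lay 16.9% of them, against 27.2% of the other probes outside the top 10%. Probes bright on all 4 arrays and outside the top 10% came close to these members. Of them 35.6% held exactly 1 CpG, 3.07% held 3 or more and 15.2% lay near starts, with a median GC of 39.0%. These traits were thus not particular to the members. This division at the top 10% was looked at closely after the data had been seen, and both kinds are described without a test.

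In CpG-dense windows almost no probe was a member unless its input was bright. In such windows 1.30% of probes in bin 9 of input were members, against 8.58% in CpG-poor windows, and in bin 8 the shares were 0.26% and 3.81%. In the top 10% the order was the other way, with 33.5% in CpG-dense and 28.7% in CpG-poor windows. Probes bright on all 4 arrays showed the same contrast, since 1.29% of the 1239 that lay outside the top 10% of input were in CpG-dense windows and 84.2% in CpG-poor windows. The kinds of member also differed in their ratios. Members outside the top 10% had a median centred log2 ratio of 1.56 on the WT decitabine and 1.67 on the KO decitabine array, against 0.53 on the WT untreated and 0.77 on the KO untreated array. Members in the top 10% had -0.19 and 0.32 on the WT and KO decitabine arrays, against -1.81 and -1.07 on the WT and KO untreated arrays. A ratio falls with the input that is in its denominator, so these levels follow in part from the split itself.

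Neighbouring probes, whose median distance from start to start was 172 bp, can report on the same DNA fragments. A member had another member within 500 bp in 25.2% of cases, against 15.1% of other probes. Bright probes of other patterns came near this share. A member lay within 500 bp of 23.9% of the probes bright on all 4 arrays. The share was 23.1% for probes bright only on the KO decitabine and 20.2% for those bright only on the WT decitabine array. Outside the top 10% of input it was 31.4% for members and 34.1% for probes bright on all 4 arrays. Where both probes of a neighbouring pair lay outside the top 10% of input and started 100 to 150 bp apart, the neighbour of a member was a member in 14.1% of 3970 cases, while the neighbour of another probe was a member in 1.29%. The share next to a member was 12% at 150 to 200 bp, 9.35% at 200 to 300 bp, 4.89% at 300 to 500 bp and 3.55% at 500 to 1000 bp. Under 100 bp it was 5.97% of 201 cases. Where both probes lay in the top 10% of input, the shares at 100 to 150 bp were 31.9% of 1748 next to a member and 27.7% next to another probe, and at 150 to 200 bp they were 31.0% in both cases. Members outside the top 10% thus came in neighbourhoods, with a share that fell with distance beyond 100 bp, and members inside it showed little of this.

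**Figure D4:**
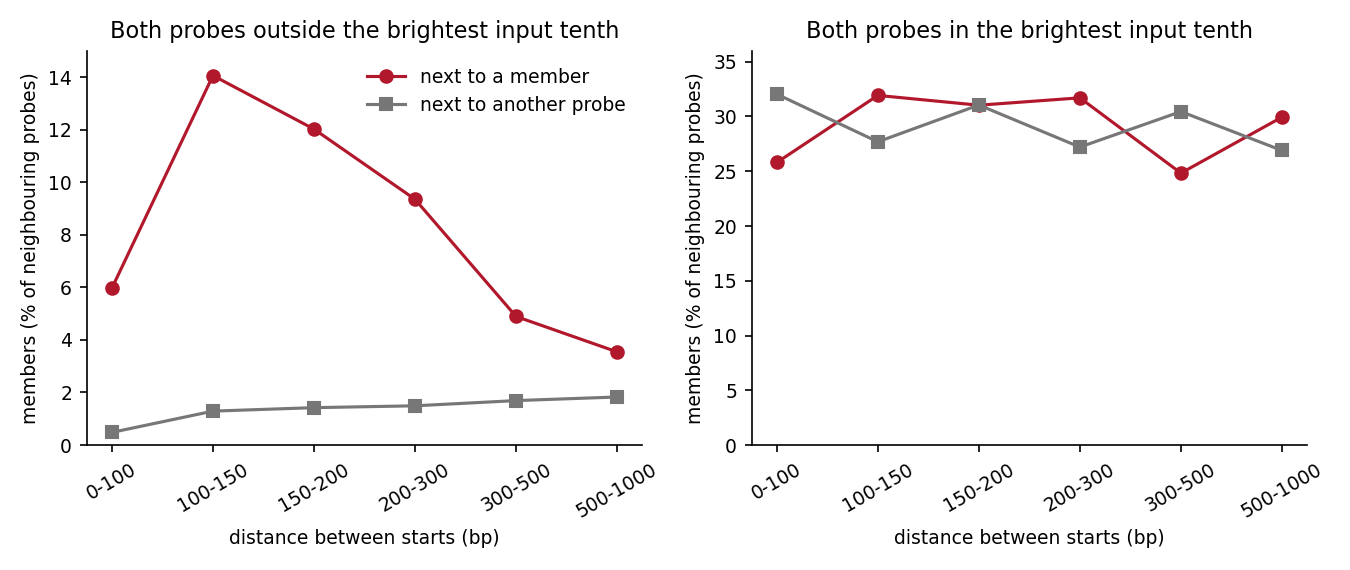
Share of neighbouring probes that are members (y axis, %) by distance between starts (x axis, bp) next to a member (red) and next to another probe (grey), for pairs outside (left) and inside (right) the top 10% of input. On the left the share at 100 to 150 bp is 14.1% next to a member and 1.29% next to another probe; on the right it is 31.9% and 27.7%.

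Joined into runs, in which each member starts at most 500 bp after the one before with no other probe between, 19515 members stood alone, 1357 runs held 2 members, 131 held 3, 18 held 4 and 4 held 5. The 485 members in runs of 3 or more had a median input rank at the 83.9th percentile and 36.1% of them were in the top 10%, against the 94.8th percentile and 70.8% for members that stood alone. CpG-dense windows held 9.07% of members in such runs and 14.8% of those that stood alone.

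The Zbtb4 run lies in an intron, and the midpoints of the probes shown lie 451 to 875 bp after the nearest transcription start. All distances to transcription starts given here are from probe midpoints. In chromosome order the second probe of the run had 237 and 269 units on the WT and KO decitabine arrays, against 10.4 and 120 on the WT and KO untreated arrays. The middle probe had 194 and 168 on the WT and KO decitabine arrays, against 32.1 and 106 on the WT and KO untreated arrays. In scanner units the probes shown were higher after decitabine in both genotypes, and in each the WT untreated signal was the lowest of the 4. The fourth probe had 344 and 229 units on the WT and KO decitabine arrays, against 14.6 and 183 on the WT and KO untreated arrays. The last probe had 153 and 128 on the WT and KO decitabine arrays, against 12.7 and 107 on the WT and KO untreated arrays. The probes' input ranks lay between the 56.8th and the 94.2nd percentile. By rank within its array the fourth probe stood at percentile 96.92 on the KO decitabine and 97.05 on the KO untreated array. The lower bound on the change reached 2.94-fold in WT and 2.31-fold in KO cells at the fourth probe, or 2.16-fold and 1.37-fold with the arrays centred on the probes bright on all 4. In KO cells it did not exceed 1 at every probe of the run, and there no size can be given. The 9 probes before the run, from -1434 bp on, were under the limit on all 4 arrays.

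A second run of 5 lies at chr14:69910624-69911401 in D930020E02Rik, across coding exons, introns and a UTR, from 982 to 1707 bp after a transcription start. Its signals were 179 to 324 units on the WT decitabine and 246 to 352 on the KO decitabine array, against 37.8 to 102 on the WT untreated and 114 to 192 on the KO untreated array. The 3 probes before it were over the limit on both decitabine arrays and on the KO untreated array as well, so they were no members. Another run of 5, at chr19:29790913-29791563 in a coding exon of 9930021J03Rik, had 117 to 179 units on the WT decitabine and 151 to 242 on the KO decitabine array, against 55.4 to 94.1 on the WT untreated and 109 to 149 on the KO untreated array. The last run of 5, at chr4:120710925-120711750, lies at -1041 to -266 bp from the start of Col9a2, a collagen IX chain gene, and had 134 to 189 units on the WT decitabine and 96.8 to 202 on the KO decitabine array, against 2.17 to 91.2 on the WT untreated and 41.3 to 168 on the KO untreated array. In the windows of these 4 runs observed over expected CpG ranged from 0.13 to 0.57. The median was 0.25 over all probes and 0.34 over the members. Of the 18 runs of 4, which tie in length, the first in chromosome order was at chr1:82722752-82723381 in 5230400G24Rik, with 125 to 213 units on the WT decitabine and 102 to 202 on the KO decitabine array, against 44.6 to 108 on the WT untreated and 53.9 to 151 on the KO untreated array.

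**Figure D5:**
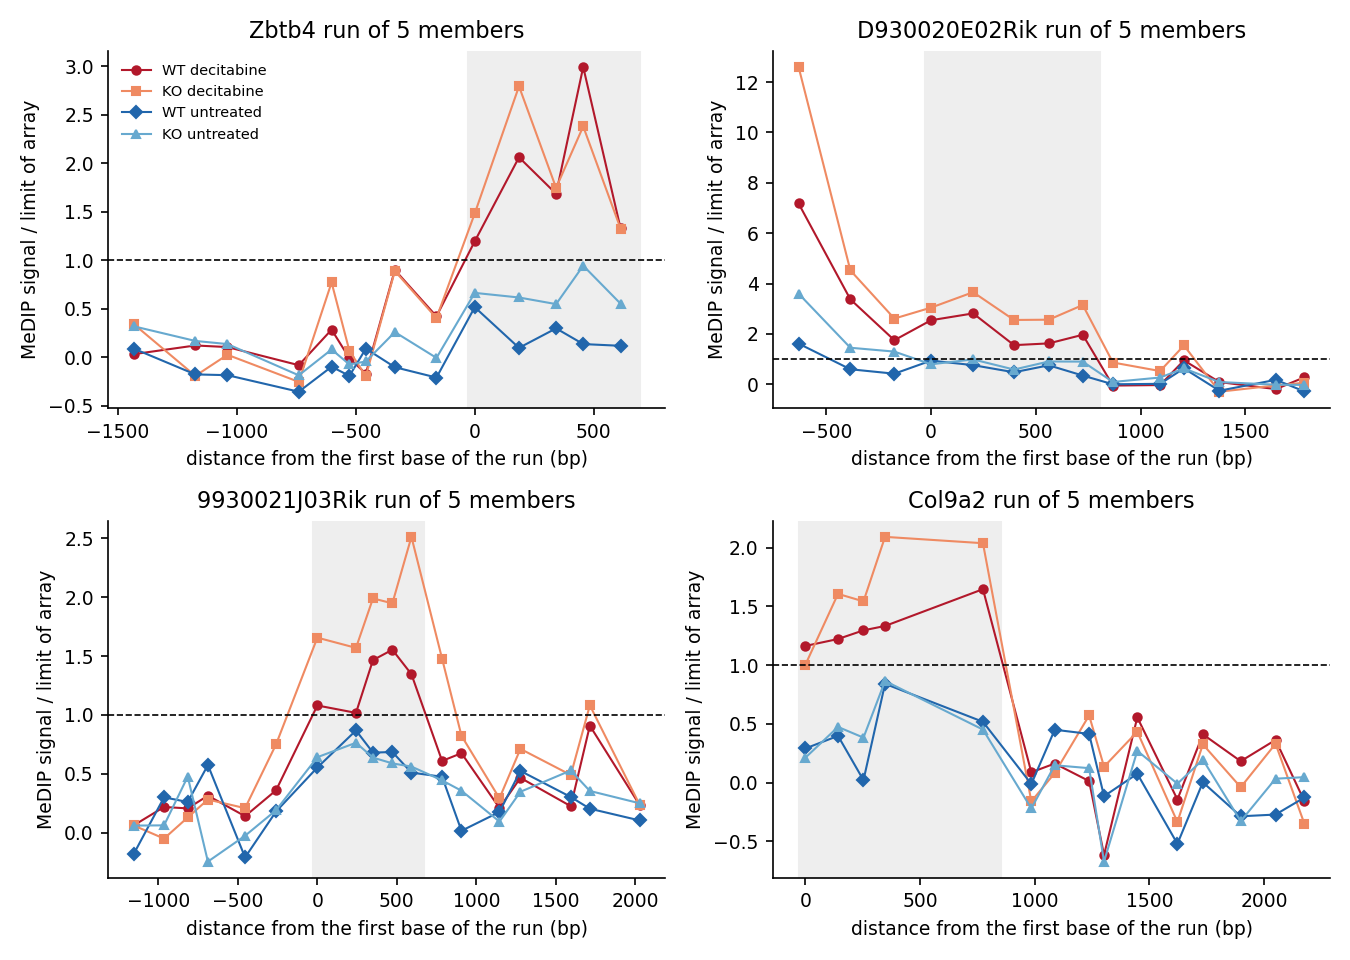
MeDIP signal divided by the limit of its array (y axis, 1 at the dashed line) for the 4 runs of 5 members and the probes around them, by distance from the first base of the run (x axis, bp), with decitabine arrays in red (WT) and orange (KO) and untreated arrays in dark (WT) and light blue (KO). Within the grey span both decitabine arrays are above 1 and both untreated arrays below it; at D930020E02Rik the 3 probes before the run exceed 1 on the KO untreated array too.

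By annotation the members were spread over all kinds of sequence on the array. Members made up 5.74% of probes in coding exons, 5.60% in UTRs, 4.90% in non-coding exons, 4.501% in introns and 3.69% in intergenic DNA. By distance to the nearest transcription start the share was highest from 0 to 500 bp after the start, at 6.22%, with 4.85% in the 500 bp before it and 3.56% from 1000 to 500 bp before it. Chromosomes of at least 1000 probes ranged from 3.69% members on X to 4.92% on 15. Exact matches elsewhere in the genome were rare, since 51 members (0.224%) had 2 or more, against 0.198% of all probes.

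Members carried the name of 10760 of the 17156 gene symbols on the array (62.7%), and 8031 of these genes had only 1 or 2 members. Genes with 5 or more members numbered 522, and 9 had 10 or more. The gene with the most members was Rtl1, an imprinted retrotransposon-derived gene active in placenta, with 15 of 99 probes at chr12:110821386-110837712. Of its probes 27 were bright on the WT decitabine and 30 on the KO decitabine array, against 9 on the WT untreated and 6 on the KO untreated array. Only 3 of the 15 were in the top 10% of input. Plec1, the gene of the cytoskeletal linker plectin, had 14 of 209 probes, all 14 in the top 10% of input, so its 6.70% share came from bright input probes. Asb7, an adaptor of a ubiquitin ligase, had 12 of 81, of which 6 lay in introns and 6 in UTRs. The junctophilin gene Jph4 had 11 of 82 and the actin-bundling gene Espn 11 of 115.

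Fgfr1, the gene of a fibroblast growth factor receptor, was named both for its number and for its share, with 10 of 32 probes (31.2%), all in introns between chr8:26629202 and 26645118. Its 10 members had a median of 177 units on the WT decitabine and 179 on the KO decitabine array, against 51.6 on the WT untreated and 145 on the KO untreated array. None of its 32 probes was bright on either untreated array, while 11 were bright on the WT decitabine and 14 on the KO decitabine array. Of the 10 members 4 lay in the top 10% of input, and 4 stood in 1 run. The adhesion gene Amigo2 had 10 of 39, Fryl 10 of 77, the corepressor gene Ctbp2 10 of 127, the zinc finger transcription factor gene Sp4 9 of 34, the synaptic adhesion gene Clstn3 9 of 35 and the kinase gene Camk2g 9 of 51. Camk2g had 0 of its 9 members in the top 10% of input.

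Among genes with at least 10 probes the highest shares were small counts. Acrbp, which encodes an acrosin-binding protein of sperm, had 5 of 13 probes, Efr3b 4 of 11, the T cell adaptor gene Lat 5 of 14, Thoc3 of the mRNA export machinery 7 of 21, the phosphatase gene Ptprh 4 of 12 and the kinase gene Wnk2 4 of 12. Zbtb4 had 5 of 16, the retinal arrestin gene Sag 8 of 26 and Amac1 4 of 13. At Lat the members' median was 158 units on the WT decitabine and 137 on the KO decitabine array, against 15.8 on the WT untreated and 50.7 on the KO untreated array, and none of its 14 probes was bright on an untreated array. At Sag the members' median was 148 on the WT decitabine and 189 on the KO decitabine array, against 56.7 on the WT untreated and 131 on the KO untreated array. Such genes numbered 15939.

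Of 23 lists of genes 11 had a share of members above the 4.38% of all probes and 12 below it. The highest was that of imprinted genes, with 49 of 852 probes (5.75%). Mest, an imprinted hydrolase gene, led it with 8 of 62 probes. Lymphoid genes had 36 of 662 (5.44%), led by Cd4 with 5 of 50, and myeloid genes 33 of 609 (5.42%), led by Sfpi1, which encodes the transcription factor PU.1, with 4 of 46. Germline genes, whose promoters are often methylated in somatic cells, had 32 of 599 (5.34%), led by Tex101 with 3 of 25. Genes that handle decitabine had 27 of 515 (5.24%), led by the deaminase gene Dctd with 5 of 29. The genes of DNA methylation had 29 of 628 (4.62%), led by Dnmt3l, a cofactor of the de novo methyltransferases, with 6 of 32. Ribosomal protein genes had 119 of 2299 (5.18%), led by Rpl22, and Zfp genes 362 of 7104 (5.10%), led by Zfp64. Solute carriers had 476 of 10483 (4.54%) with Slc38a2 in the lead, and the erythroid and megakaryocyte list 17 of 377 (4.51%) with Gata1. In these lists 9.52% (germline) to 12.6% (ribosomal protein) of probes lay in the top 10% of input. Within that top 10%, 29.8% of all probes were members. The share there was 37.1% in myeloid, 33.3% in imprinted, 31.0% in decitabine handling, 30.1% in Zfp and 30% in erythroid and megakaryocyte lists. It was 28.7% in solute carrier, 28.6% in lymphoid, 28.4% in ribosomal protein, 28.1% in germline and 19.7% in DNA methylation lists.

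Close to or below the share of all probes were the developmental genes bound by polycomb, with 76 of 1716 (4.43%), led by Pax7. The H3K4 methylation list had 18 of 425 (4.24%), led by the demethylase gene Jarid1b, interferon response genes 22 of 532 (4.14%), led by Oasl1, and stem and progenitor genes 29 of 725 (4%), led by Myb. Housekeeping genes with a CpG island had 24 of 617 (3.89%), led by Ppia, although 14.3% of their probes lay in the top 10% of input. Tumour suppressor genes had 35 of 998 (3.51%), led by Trp53. Keratins had 3.85%, cytochrome P450 genes 3.42%, led by Cyp26b1 with 8 of 66, protocadherins 3.41%, led by Pcdhgc5, and microRNA loci 3.36%, led by mmu-mir-715. Krt18 led the keratins with 5 of 34. The lowest shares were in replication-dependent histone genes with 21 of 1072, led by Hist1h2ah, olfactory receptors with 257 of 19871 (1.29%), led by Olfr456, and vomeronasal receptors with 19 of 2090 (0.909%), led by V1rd18. These lists also had few probes in the top 10% of input, 3.17% for histone, 3.24% for olfactory receptor and 3.59% for vomeronasal receptor genes, against 10% of all probes. Within the top 10% of input 35.3% of histone, 23.3% of olfactory receptor and 17.3% of vomeronasal receptor probes were members, against 29.8% of all probes there.

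Of 38845 probes bright on both decitabine arrays with bright input, the centred log2 ratio was at least 1 higher in KO for 3889 (10%) and at least 1 lower for 556 (1.43%). Among the 22608 members of these, 2682 (11.9%) were higher and 301 (1.33%) lower, with a median difference of 0.34, against 0.31 over all probes tested. Without the input the MeDIP signal of the members had a median difference of 0.00, against 0.03 over all probes tested. Here 386 members were higher and 296 lower. With loess within arrays the members' median difference was -0.13, against -0.20 over all probes tested, with 758 members higher and 1310 lower. The counts without the input and with loess are given without the matching shares over all probes tested. Across the members the MeDIP signals of the WT and KO decitabine arrays had a rank correlation of 0.53, over 22780 probes that share their input brightness and base composition.

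Probes printed as 2 spots gave the only check within an array. For the 2246 members with 2 spots, whose spots are technical repeats on 1 array, the median absolute difference between spots on the log2 scale of the processed MeDIP signal was 0.17 on the WT decitabine and 0.21 on the KO decitabine array, against 0.49 on the WT untreated and 0.44 on the KO untreated array. Among 2448 probes whose first spot had the members' pattern, the second spot had it in 1827 (74.6%), against 5.88% of second spots over all 42563 such probes. By place on the slide the share of members was at most 4.60% in any of 8 equal bands of rows. Of 8 equal bands of columns, bands 2 and 4 had 5.21% and 5.35%, and the other 6 had at most 4.17%. The part of the column pattern in the results was not tested.

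The gene lacking in the KO cells could not be checked with these probes. The array has 4 probes within Mll5, all in the first 450 bp of the gene, of which 1 was a member, and the deleted part is not given in the sources used here. Of 38 probes within Hoxa9, 27 had bright input on all 4 arrays. Over these the centred log2 input signal differed by a median of -0.07 between KO and WT under decitabine and of -0.17 without treatment. Over the 3 such probes of Mll5 the medians were -0.34 under decitabine and -0.12 without treatment. The SD over all probes with bright input was 0.56 under decitabine and 0.50 without treatment. A probe without input in KO cells would fail this filter, so these values cannot decide whether either gene is deleted. Genomic DNA carries no expression, so the cell type could not be checked against marker genes. In a population of cells, more methylated copies in some cells and more methylation in every cell cannot be told apart.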

How the data were processed

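Genomic DNA from 4 groups of mouse leukaemic cells was measured on 4 two-colour Agilent arrays, 1 per group, with MeDIP DNA in Cy3 and input DNA in Cy5 and no dye swap, per the labels. The authors deposited scanner intensity values from Agilent Feature Extraction. Its version is 10.5 in the submitters' processing notes, and the file headers give 10.5.1.1 and the build mm9. Spatial detrending and surrogate values were switched on, per the file headers, and the processed intensity is also dye-normalized. The 4 columns of the authors' value table were not used, since their identifiers match no probe column.

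A probe was bright where all its spots carried the flag. Ranks used the background-subtracted intensity, in which surrogates play no part. Log2 ratios used the processed intensity, centred on each array's median over probes with bright input and no outlier spot on all 4 arrays. Probe sequences were matched to mm9, where 519521 of 520554 lay at their stated place, with GENCODE annotation. The members and lists were chosen with earlier results of these data known. Genes named are the 12 with the most members, the 10 with the highest share among genes with at least 10 probes and the leader of each of 23 lists. Runs named are the 5 longest. Sequences shown are the brightest, those nearest the limit, those with the most CpG and 1 longest run, outside UTRs and chromosome 18. Of that run, 1 probe is not reported here. No test was made, and the number of arrays limits the precision. The code that counts neighbours and runs was checked on simulated probes with known counts, which is no comparison with chance. Python 3.11.15, pandas 2.3.3, R 4.3.3 and limma 3.58.1 (normexp with offset 50, loess) were used, and the closing section gives the effect of the alternatives.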

Additional observations from a re-analysis of the deposited data

How the results depend on the processing

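The rule gave 22780 members, of which 43.6% held no CpG, 25.2% had a neighbouring member, 14.7% lay in CpG-dense windows and 68.1% were in the top 10% of input. Counting a probe as bright when any of its spots was, or at least 0.5 of them, gave 42.7%, 26.2% and 15.7% for the first 3 shares. Requiring bright input on all 4 arrays gave 68.8% in the top 10%. The flag for a positive and significant signal gave 43603 members, 48.3% without a CpG, 31.3% with a neighbouring member, 12.5% in CpG-dense windows and 16.1% in the top 10% of input. The brightest 5% of each array gave 2577 members, 31.5% without a CpG, 4.15% with a neighbouring member, 26% in CpG-dense windows and 88.6% in the top 10% of input. A difference of at least 2 times on the scanner mean minus local background gave 2 members, 0% without a CpG, 0% with a neighbouring member, 50% in CpG-dense windows and 100% in the top 10% of input. The next alternatives were chosen after seeing the data. The same difference on the background-subtracted signal gave 4150 members, 34.3% without a CpG, 5.61% with a neighbouring member, 22.2% in CpG-dense windows and 80.7% in the top 10% of input. With the limit of the KO untreated array on all 4 arrays there were 5050 members, 35.1% without a CpG, 7.72% with a neighbouring member, 22.4% in CpG-dense windows and 85.1% in the top 10% of input. With that of the WT decitabine array there were 9338 members, 39.6% without a CpG, 12.2% with a neighbouring member, 18.6% in CpG-dense windows and 71.3% in the top 10% of input. With that of the KO decitabine array there were 11187 members, 40.2% without a CpG, 13.4% with a neighbouring member, 17.4% in CpG-dense windows and 64.6% in the top 10% of input. Without the KO untreated array in the rule 30.2% had a neighbouring member and 69.8% were in the top 10% of input. Without the WT untreated array 45.1% held no CpG, 27.5% had a neighbouring member, 13.6% lay in CpG-dense windows and 65.9% were in the top 10% of input. A neighbour within 250 bp was found for 14.3% and within 1000 bp for 37.7%. The median rank was 83.8 on the WT untreated and 91.1 on the KO untreated array on the scanner mean minus local background and after normexp, and 82 on the WT untreated and 89.4 on the KO untreated array among probes with bright input. Between genotypes under decitabine, the MeDIP channel alone gave 386 members higher in KO, 296 lower and a median of 0.0031, the normexp ratio 1721 members higher in KO, 136 lower and a median of 0.30, loess 758 members higher in KO, 1310 lower and a median of -0.13, which turned the direction, and centring on the probes bright on all 4 arrays 1436 members higher in KO, 737 lower and a median of 0.10. Over all probes tested the median was 0.03 for the MeDIP channel alone and 0.27 for the normexp ratio. It was -0.20 for loess and 0.06 with that centring. The counts of members higher or lower in these settings are given without the matching shares over all probes tested. The cause of these shifts between settings was not tested. The number of members was 27128 without the KO untreated and 26096 without the WT untreated array. These counts and 26 other values were within 1.5 times the reported count or, for shares and medians, close to the reported value. No paired analysis was made, and none of these results comes from a test. The number of arrays and the closeness of many members to their limits bound the precision.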
